A study of Sus scrofa with 6 samples.

Results

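The SLC2A genes encode the facilitated hexose transporters, known as GLUT proteins. Their messenger RNA was followed in cultured pig cells, labelled as testis cells, with and without a stable form of vitamin C. The genes were taken by symbol from a list of 10 family members, and 8 of the 10 matched a row among the 17670 genes of the count table. The matched genes were SLC2A2, SLC2A5, SLC2A6, SLC2A8, SLC2A10, SLC2A11, SLC2A12 and SLC2A13. SLC2A1 and SLC2A3, which encode GLUT1 and GLUT3, matched no row and were not analysed here. The family was picked because SLC2A5 stood out in this same comparison, so the values of its members are a description and carry no p-value, and nothing else is supported by them.

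The cells were labelled immature Sertoli cells, a cell type that lines the seminiferous tubule and nurses its germ cells, from pig testis at 80 to 90 days of gestation. Control cells (3 libraries) and cells given 250 µM L-ascorbic acid 2-phosphate, or AA2P, as its sesquimagnesium salt hydrate (3 libraries), were grown in the same serum-containing medium, and AA2P was added after 6 h of culture. How long AA2P was left on the cells is not stated in the labels. The labels do not say whether replicate libraries are separate cultures or animals, so all errors and tests reflect the spread between these 6 libraries, which may be technical.

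GLUT proteins let sugars cross the cell membrane down their concentration gradient, without using sodium or ATP. They are sorted by sequence into class I, which holds the classical glucose carriers such as GLUT2, class II, which holds the fructose carrier GLUT5 and GLUT11, and class III, which holds GLUT6, GLUT8, GLUT10, GLUT12 and the proton-coupled inositol carrier HMIT. Several GLUT proteins also carry dehydroascorbic acid, the oxidised form of vitamin C, and Sertoli cells take up glucose to make lactate for germ cells.

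Library totals ran from 18747307 to 23521291 counts. The cells of both groups were checked against Sertoli markers, of which 13 of 18 had a row. AMH had 36.4 ± 1.52 CPM in control and 34.5 ± 2.35 CPM in AA2P libraries (SD, n = 3), where CPM is the count of a gene relative to the library total scaled by the trimmed mean of M-values (TMM). INHA, DHH and NR5A1 were at group means of 0 to 0.152 CPM, near the 0.123 to 0.165 CPM that 3 counts, the most a count of 0 allows, correspond to. That floor covers counting error only. AMHR2 was at 0.291 to 0.595 CPM, above that floor in every library but too low to be tested. SOX9 had a mean of 11.6 CPM in controls and 2.22 with AA2P. Of 13 proximal tubule markers of the kidney 12 had a row, their summed level was 181 to 235 CPM in control and 1098.5 to 1559 CPM in AA2P libraries, and SLC22A6, SLC22A8 and SLC13A3 were at 3 counts or fewer in every library. LRP2, the endocytic receptor megalin, was at 65.1 to 92.7 CPM in control and 474 to 742 CPM in AA2P libraries. The labelled cell type was thus borne out by some of its defining markers and not by others, while markers of another epithelium were present in both groups, so the label is in doubt and all values below are those of the cells as cultured. Markers of germ cells summed to 1.40 to 2.23 CPM and red cell markers to 0 to 0.220 CPM over the 6 libraries. Leydig cell markers summed to 5.58 to 5.84 CPM in control and 6.36 to 7.38 in AA2P libraries, endothelial markers to 2.03 to 2.87 and 6.08 to 8.03, and adipocyte markers to 0.243 to 0.441 and 0.698 to 0.901. Macrophage and leukocyte markers summed to 34.8 to 36.3 and 25.2 to 29.3 CPM, and smooth muscle markers to 413 to 419 and 293 to 345 CPM. INSL3, CSF1R and PDGFRB, defining markers of Leydig cells, macrophages and peritubular cells, were at means of 0 to 0.0324 CPM. Other genes of these lists were expressed, with CD14 at means of 28.5 CPM in control and 20.5 in AA2P libraries. DES was at 39.1 and 8.35 CPM and STAR at 5.70 and 6.68. Within the macrophage list AIF1 rose from 0.727 to 5.17 CPM and ITGAM fell from 6.05 to 1.42. AA2P library 3 lay nearest the controls, with a mean correlation to them of 0.976 across genes against 0.966 and 0.968 for libraries 1 and 2.

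Of the 8 transporters, 1 fell, 2 rose, 4 did not pass the threshold and 1 had too few counts to be tested. A gene passed where edgeR's quasi-likelihood test, Benjamini-Hochberg adjusted over 12701 genes, gave an adjusted p under 0.05. In the same comparison 52.1% of all tested genes passed, 26% higher and 26.1% lower with AA2P, so nothing is read from the members' count. SLC2A5 fell, SLC2A11 and SLC2A12 rose, and each of the 3 changed by more than 2-fold. Of all tested genes 9.01% both passed and changed by at least 2-fold (5.53% higher and 3.48% lower). For these 3 genes no control library reached into the AA2P range, which held for 59.3% of all tested genes (29.8% higher and 29.5% lower). The median log2 fold change was 0.14 over the 7 tested transporters and -0.00049 over all tested genes. In bulk RNA, fewer cells of a kind and less RNA per cell cannot be told apart. Levels of different transporters are not compared, because no transcript lengths were used here.

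**Figure D1:**
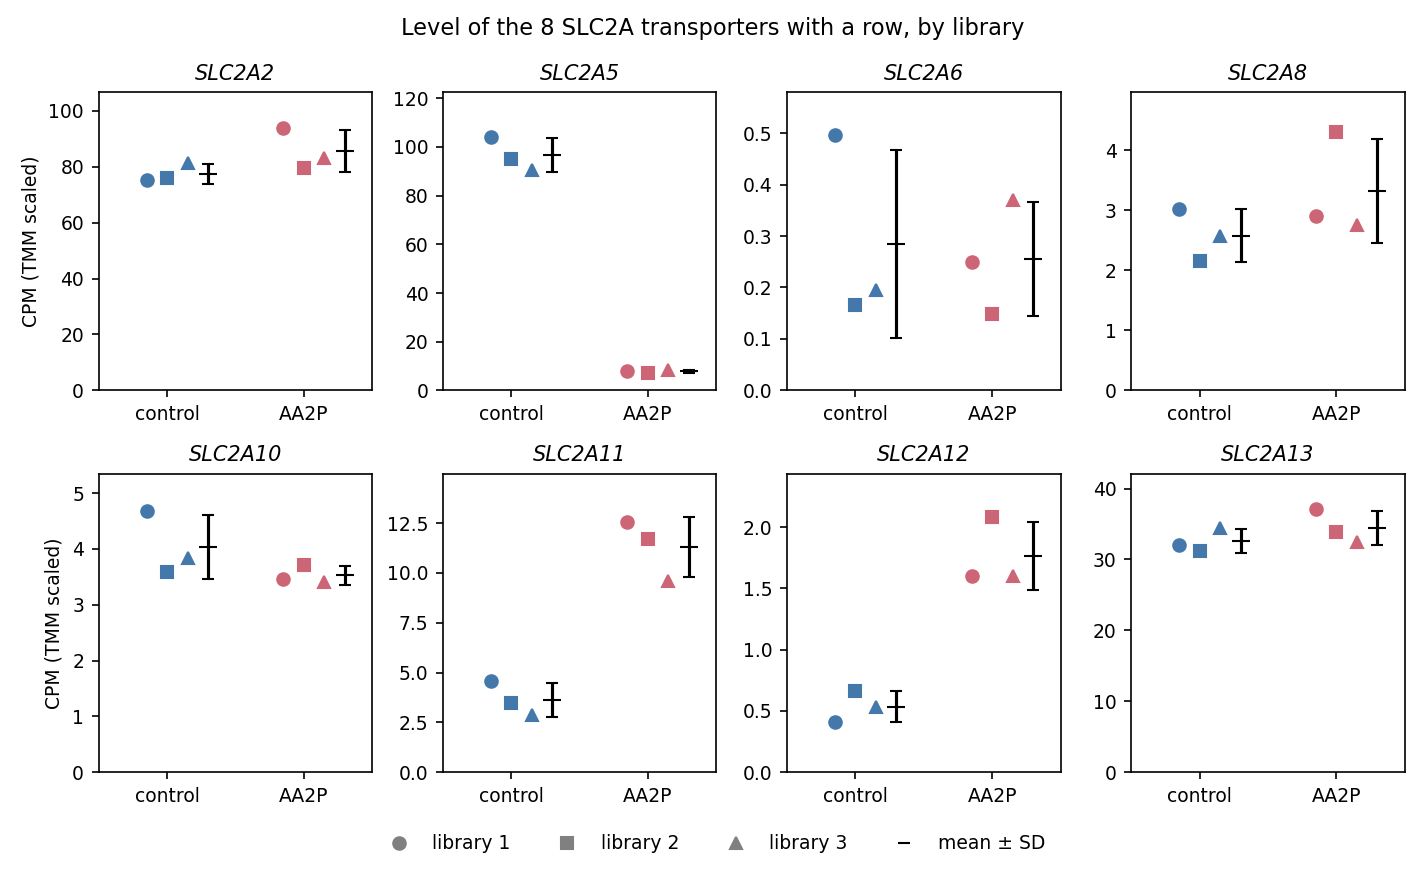
Level of each SLC2A transporter with a row, in CPM (TMM scaled, linear axis from 0, a separate scale in each panel), by group. Symbols are libraries 1 to 3, and bars are the mean and SD of 3 libraries. SLC2A5 sits between 90.7 and 104 CPM in controls and between 7.23 and 8.34 with AA2P, SLC2A11 and SLC2A12 are higher in all 3 AA2P libraries, and the other panels overlap.

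SLC2A5 encodes GLUT5, a carrier with a strong preference for fructose that is best known from the small intestine, the kidney and sperm. Its row held 2310, 1727 and 1868 reads in control libraries 1 to 3 and 163, 146 and 203 in AA2P libraries 1 to 3. On the CPM scale the controls were at 104, 95.2 and 90.7 and the AA2P libraries at 8.16, 7.23 and 8.34. The lowest control was thus far above the highest AA2P library. The fold change was 12.2-fold lower with AA2P, a log2 fold change of -3.61 with a standard error of 0.08 and a 95% interval of -3.78 to -3.44. Without AA2P library 3, which lay nearest the controls over all genes, the log2 fold change was -3.65. The transcript stayed well above the floor of 3 counts with AA2P.

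SLC2A11 encodes GLUT11, another class II carrier, which transports glucose and fructose. It had 101, 63 and 59 reads in the controls and 251, 236 and 234 with AA2P. That corresponds to 4.55, 3.47 and 2.86 CPM in controls and 12.6, 11.7 and 9.61 CPM with AA2P. Every AA2P library was above every control library, with AA2P library 3 the lowest of its group. SLC2A11 rose 3.08-fold, with a log2 fold change of 1.62, a standard error of 0.16 and a 95% interval of 1.29 to 1.95.

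SLC2A12 encodes GLUT12, a class III glucose carrier of insulin-responsive tissues. Its counts were low, at 9, 12 and 11 reads in controls and 32, 42 and 39 with AA2P. In CPM the controls were at 0.406, 0.661 and 0.534, and the AA2P libraries at 1.60, 2.08 and 1.60. Every AA2P library was higher than every control. SLC2A12 rose 3.31-fold, with a log2 fold change of 1.73, a standard error of 0.28 and a 95% interval of 1.13 to 2.33. The filter on low counts asked for 3 libraries at 10 counts in a library of median size, or 0.486 CPM, which 2 control libraries and all 3 AA2P libraries reached. With no filter the log2 fold change was 1.72.

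SLC2A2 encodes GLUT2, the class I carrier of liver, pancreatic beta cells and the basolateral membrane of kidney and gut epithelia, which takes glucose and fructose. It had 1666, 1376 and 1678 reads in controls and 1875, 1603 and 2025 with AA2P. The levels were 75.1, 75.8 and 81.5 CPM in controls and 93.9, 79.4 and 83.2 CPM with AA2P. Control library 3 was above AA2P library 2, so the groups overlapped. The log2 fold change was 0.14, with a standard error of 0.06 and a 95% interval of 0.01 to 0.28, and the gene missed the adjusted threshold. It passed without AA2P library 2, at 0.19, without AA2P library 3, at 0.17, and when scaled by library totals rather than TMM, at 0.31, and that scaling moved the median of all genes from -0.00049 to 0.17. The summed proximal tubule markers, a tissue in which GLUT2 is known, were higher in every AA2P library by the ranges given above, and their part in the SLC2A2 level was not tested.

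SLC2A13 encodes HMIT, which carries myo-inositol together with protons. It was at 32.0, 31.2 and 34.5 CPM in controls and 37.1, 33.9 and 32.4 CPM with AA2P, from 567 to 789 reads. The groups overlapped, and the log2 fold change was 0.08 with a standard error of 0.07 and a 95% interval of -0.07 to 0.23. With library totals it passed the threshold at 0.25.

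SLC2A8, SLC2A10 and SLC2A6 encode class III carriers that are found mainly on membranes inside the cell. SLC2A8, for GLUT8, was at 3.02, 2.15 and 2.57 CPM in controls and 2.90, 4.31 and 2.75 with AA2P, from 39 to 87 reads. Only AA2P library 2 was above the controls, and without it the log2 fold change went from 0.34, with a 95% interval of -0.09 to 0.78, to 0.12. With library totals SLC2A8 passed the threshold at 0.51. SLC2A10, for GLUT10, which is mutated in arterial tortuosity syndrome, was at 4.69, 3.58 and 3.84 CPM in controls and 3.45, 3.72 and 3.41 with AA2P. Its groups overlapped, and the log2 fold change was -0.20 with a 95% interval of -0.53 to 0.13, which reached -0.08 without control library 1. SLC2A6, for GLUT6, had 11, 3 and 4 reads in controls and 5, 3 and 9 with AA2P, reached the filter in no library and was not tested. A change of SLC2A6 was not detectable at this depth.

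**Figure D2:**
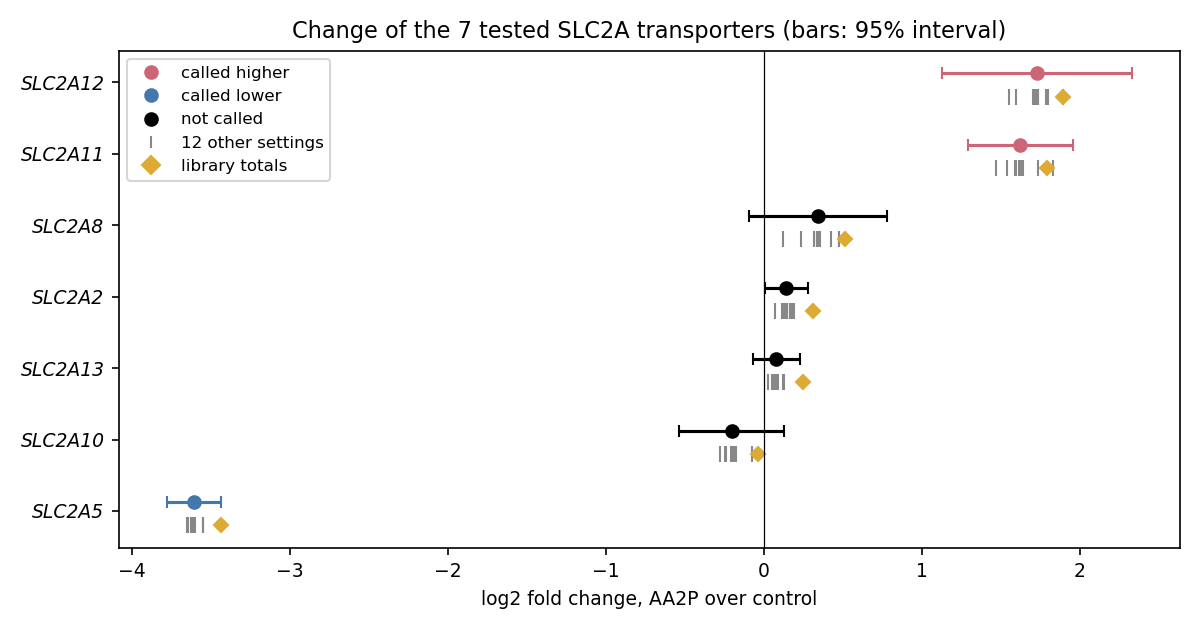
Log2 fold change (AA2P over control) of the 7 tested SLC2A transporters. Circles with bars are the estimates with 95% intervals, coloured by whether the gene passed the adjusted threshold, ticks are the estimates under 12 other settings and diamonds those with library totals. SLC2A5 stays between -3.65 and -3.44 and SLC2A11 and SLC2A12 stay between 1.47 and 1.89 in every setting. Estimates of the other 4 genes lie between -0.28 and 0.51. With library totals SLC2A2, SLC2A8 and SLC2A13 passed the threshold, at 0.31, 0.51 and 0.25.

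Outside the list of 10, SLC2A4 (GLUT4, the insulin-regulated carrier of muscle and fat) had a row with 6, 8 and 13 reads in controls and 3, 9 and 7 with AA2P, and SLC2A7 (GLUT7, class II) had a single read in control library 2. Neither was tested.

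In the RefSeq gene order of the pig assembly Sscrofa11.1, SLC2A5 lies between SLC2A7 and GPR157. The build behind the counts is not known, so only the order is used. GPR157 had a mean of 0.101 CPM in control and 0.160 CPM in AA2P libraries and was not tested. The next tested genes on that side were H6PD, a hexose-6-phosphate dehydrogenase of the endoplasmic reticulum, at a log2 fold change of -0.29 with a standard error of 0.07 (adjusted p = 0.00274 by edgeR's quasi-likelihood test), and SPSB1, at -0.15 with an adjusted p of 0.105. SLC25A33 and TMEM201, further along, did not pass, at 0.005 and -0.11. On the other side the glycolytic enzyme ENO1, 3 genes away, fell with a log2 fold change of -1.41 (edgeR's adjusted p = 2.08e-11). Every tested gene within 5 of SLC2A5 changed by less than SLC2A5 did, but SLC2A5 was picked for its change in this comparison. It ranked 61 of 12701 tested genes by size of change, so nothing is read from smaller changes beside it.

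The 5 genes whose profile over the 6 libraries was most like that of SLC2A5 were MMRN2, CYRIA, ADGRA2, COL15A1 and S100A12. Likeness was the root mean square difference of log2(CPM + 0.5), centred on each gene's mean, among 9222 genes with a symbol and a mean of at least 5 CPM, and it ran from 0.182 for MMRN2 to 0.338 for S100A12. MMRN2, an extracellular glycoprotein gene, went from a mean of 11.5 CPM to 0.416. COL15A1, which encodes a collagen of basement membrane zones, went from 110.1 to 13.6 CPM. The fitted fall of the 5 genes ran from 8.03-fold for COL15A1 to 27.2-fold for MMRN2, against 12.2-fold for SLC2A5. The added 0.5 shrinks the difference of genes near 0, such as MMRN2 at 0.416 CPM with AA2P.

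Genes that act on the sugars these transporters carry were counted in lists chosen by function. In the fructose breakdown list 3 of 6 tested genes rose and no gene fell, beside 26% higher and 26.1% lower over all tested genes, and the median log2 fold change was 0.22 against -0.00049 over all genes. GLYCTK, glycerate kinase, rose from 5.23 ± 0.645 to 15.6 ± 2.95 CPM (SD, n = 3; edgeR's adjusted p = 1.45e-07). KHK, the ketohexokinase that phosphorylates fructose, rose from 17.1 ± 1.35 to 20.0 ± 0.640 CPM (SD, n = 3; edgeR's adjusted p = 0.0316), but missed the threshold without control library 1 (0.107), control library 3 (0.126) or AA2P library 2 and by DESeq2 (0.057). TKFC, GPD1 and LPIN1 did not pass, at -0.06, 0.20 and 0.06, ALDH1B1 was not tested, and with library totals 5 of the 6 were called higher.

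The polyol pathway makes fructose from glucose inside the cell. Of its 5 tested genes 2 rose and 1 fell, beside 26% and 26.1% of all tested genes (list median 0.21). AKR1B1, the aldose reductase that makes sorbitol, fell from 194 ± 5.45 to 136 ± 15.9 CPM (SD, n = 3; edgeR's adjusted p = 9.41e-06). SORD, which turns sorbitol into fructose, rose from 29.1 ± 2.06 to 33.8 ± 1.02 CPM (SD, n = 3; edgeR's adjusted p = 0.0169), and missed the threshold without control library 2 (0.108) or AA2P library 2 (0.0731), when 1 gene of the list was called higher. AKR1A1 rose with a log2 fold change of 0.46, and DCXR and XYLB did not pass, at 0.29 and -0.18.

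**Figure D3:**
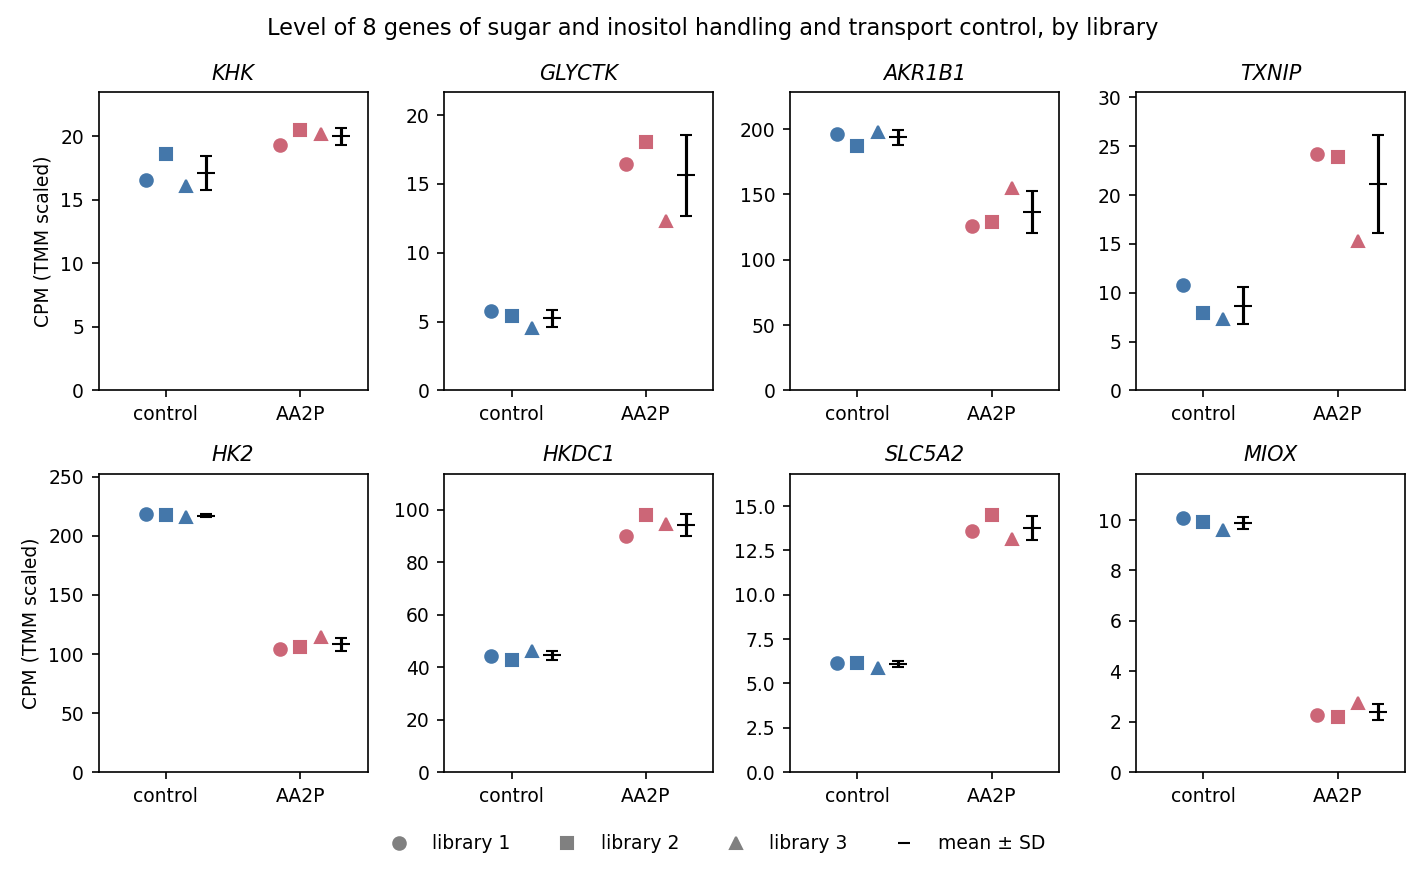
Level of 8 genes of sugar and inositol handling and transport control in CPM (TMM scaled, linear axis from 0, a separate scale in each panel), by group. Symbols are libraries 1 to 3, and bars are the mean and SD of 3 libraries. KHK, GLYCTK, TXNIP, HKDC1 and SLC5A2 are higher and AKR1B1, HK2 and MIOX lower in all 3 AA2P libraries.

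Hexoses that enter through GLUT proteins are trapped by phosphorylation. Of 12 tested genes of hexose phosphorylation and dephosphorylation 5 rose and 5 fell, beside 26% and 26.1% of all tested genes (list median 0.09). The hexokinase gene HK2 fell from 217 ± 1.48 to 108 ± 5.35 CPM and HK1 from 332 ± 7.68 to 210 ± 12.9 (SD, n = 3), while HKDC1, a related hexokinase, rose from 44.5 ± 1.70 to 94.2 ± 4.11. PFKFB3, which makes the activator of phosphofructokinase, fell with a log2 fold change of -1.05. The adjusted p-values of these 4 genes lay between 1.22e-10 (HK2) and 2.45e-08 (HK1) in edgeR's quasi-likelihood test. Without control library 3, 3 genes of the list were called higher. In the list for galactose, mannose and hexosamine entry 3 of 14 rose and 7 fell (list median -0.16), and MPI and UGP2 fell with log2 fold changes of -0.90 and -0.65. With library totals 5 rose.

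Among the sugar transporters outside the SLC2A family, 8 genes of the SLC5, SLC45 and SLC50 families were tested. Of these 4 rose and 1 fell, beside 26% and 26.1% of all tested genes (list median 0.58). SLC5A2, the sodium-glucose cotransporter SGLT2 of the proximal tubule, had 137, 112 and 121 reads in controls and 272, 293 and 320 with AA2P, a log2 fold change of 1.18 with a standard error of 0.10 (edgeR's adjusted p = 6.95e-08). SLC5A11, a sodium-coupled inositol carrier, had 2, 1 and 4 reads in controls and 100, 76 and 67 with AA2P. No control library of SLC5A11 reached the filter on low counts, so it was tested through its AA2P libraries alone and had to be higher there, and without it 3 of 7 rose, 1 fell and the list median was -0.01. SLC5A4 rose with a log2 fold change of 1.26, with AA2P library 3 at 1.89 CPM and the other AA2P libraries at 4.01 and 3.96. SLC45A4 rose from 14.9 ± 1.58 to 35.3 ± 3.53 CPM (SD, n = 3), and SLC50A1, which is not sodium-coupled, fell with a log2 fold change of -0.56. SLC5A1, SLC45A2 and SLC45A3 did not pass, at -0.26, -0.01 and -0.19, and SLC5A9 had 0 reads in every control and 2, 1 and 4 with AA2P. Without AA2P library 3 SLC45A3 was also called lower. Of the proximal tubule markers 9 of 9 tested genes were called higher, beside 26% of all tested genes, and SLC5A2 is on both lists. The part of the proximal tubule markers in this list was not tested.

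Myo-inositol is the cargo of SLC2A13, and genes of inositol handling were counted as a further list. In the inositol list 4 of 11 tested genes rose and 4 fell, beside 26% and 26.1% of all tested genes (list median 0.15). With library totals 7 rose and 2 fell, and without AA2P library 2 the number lower was 2. SLC5A11 is also on this list, and without it 3 of 10 rose and 4 fell. MIOX, the oxygenase that opens the inositol ring, fell from 9.88 ± 0.245 to 2.40 ± 0.312 CPM (SD, n = 3; edgeR's adjusted p = 3.02e-09). IP6K1 rose with a log2 fold change of 0.47, and ITPK1 fell with -0.53.

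Genes that control where GLUT proteins sit in the cell were counted as trafficking genes. Of 22 tested trafficking genes 6 rose and 8 fell, beside 26% and 26.1% of all tested genes (list median -0.09). TXNIP, an arrestin-like protein that removes GLUT1 from the surface, rose from 8.68 ± 1.88 to 21.1 ± 5.04 CPM (SD, n = 3; edgeR's adjusted p = 7.96e-06), and its relative ARRDC4 was at 20.5 ± 2.41 and 21.6 ± 2.26 CPM. SORT1, which encodes sortilin, fell with a log2 fold change of -0.83, RALA fell with -0.56 and STOM, stomatin, rose with 0.73. Without control library 3, 5 trafficking genes were called lower, and with library totals 3. Among 21 tested genes of insulin, AMPK and related kinase signalling 5 rose and 10 fell (list median -0.13), and the insulin receptor substrate IRS1 fell with -0.92. PRKAB1 and PRKAB2, which encode alternative beta subunits of AMPK, went opposite ways, at 0.51 and -0.54.

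Of 23 tested genes of glucose- and oxygen-responsive transcription 9 rose and 7 fell, beside 26% and 26.1% of all tested genes (list median 0.10). PPARGC1A, among the 9 and singled out after its values were seen, passed the filter through its AA2P libraries alone, and without it 8 of 22 rose (list median 0.05). HIF1A, the oxygen-regulated factor known to act on several GLUT genes, fell from 759 ± 45.6 to 405 ± 40.0 CPM (SD, n = 3; edgeR's adjusted p = 7.14e-09). HNF4A, a hepatic and renal factor, rose with a log2 fold change of 2.00 and is also on the proximal tubule list. MLXIPL, the carbohydrate response factor ChREBP, had a mean of 0.0300 CPM in controls and 0.165 with AA2P and was not tested. For the cargo that links GLUT proteins to AA2P, 1 of 6 tested genes of ascorbate and dehydroascorbate handling rose and 3 fell (list median -0.16), or 2 higher with library totals. SLC23A1 rose with a log2 fold change of 1.89 and SLC23A2 fell with -0.75. CYB5R3, at -0.18, passed (edgeR's adjusted p = 0.0356), but not with library totals (0.905), by DESeq2 (0.0666), or without control library 1 (0.0884), control library 2 (0.134) or AA2P library 3 (0.144).

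**Figure D4:**
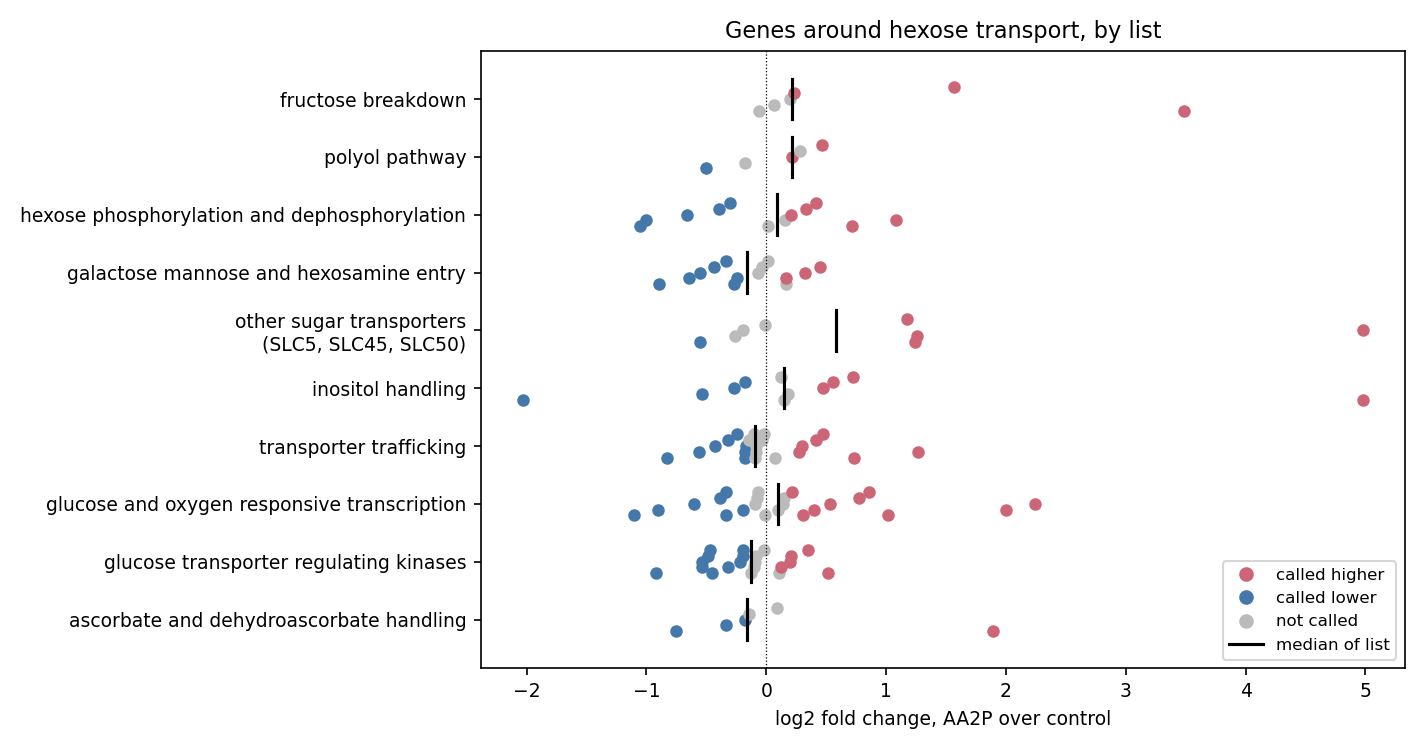
Log2 fold change (AA2P over control) of each tested gene in 10 lists around hexose transport. Points are genes, coloured by whether they passed the adjusted threshold, with vertical offsets for legibility only, and black lines are list medians, which lie between -0.16 and 0.58. The lists hold 5 to 23 tested genes, and over all tested genes 26% were called higher and 26.1% lower.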

How the data were processed

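RNA sequencing was done on 3 control and 3 AA2P libraries on a HiSeq X-Ten, per the labels. The submitters' processing notes name bcl2fastq and HISAT2 2.0.5. For the counting tool, strand setting, annotation and genome build nothing is given in the sources used here, so no coordinates are printed and reads of similar or overlapping genes may be shared. The authors deposited whole-number read counts per gene, not normalized. A table of gene names gave a symbol for 13141 of 17670 genes, 10814 of them among those tested.

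Counts were tested in R 4.3.3 with edgeR 4.0.16 (quasi-likelihood test, TMM factors, filterByExpr, group alone, Benjamini-Hochberg adjustment over 12701 genes). Fold changes are AA2P over control on the log2 scale. Each standard error is the size of that value divided by the square root of F. The procedure was tested on simulated data. Alternatives used DESeq2 1.42.0 and limma 3.58.1 (voom), other scalings, filters, the replicate block and each library left out. The members, gene lists and the rule for named genes (all members, the called genes with the 4 smallest p of each list, all of the fructose, polyol and SLC5, SLC45 and SLC50 lists, TXNIP, ARRDC4, HIF1A, MLXIPL, SLC23A1 and SLC23A2, and the 5 genes most like SLC2A5) were chosen with earlier results of these data known. SLC2A4, SLC2A7 and the neighbours of the transporters lie outside it and were added after their values were seen. No library of a group matched another within sampling noise, so each counted as 1 sample. A few genes under this rule are left unreported. No sequence is printed.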

Additional observations from a re-analysis of the deposited data

How the results depend on the processing

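SLC2A5, SLC2A11 and SLC2A12 kept their direction and their call under all 13 alternatives that give a fold change, with ranges of -3.65 to -3.44, 1.47 to 1.83 and 1.55 to 1.89. With library totals 5 transporters were called higher, since SLC2A2, SLC2A8 and SLC2A13 passed at 0.31, 0.51 and 0.25, over all genes 5727 were called higher and 1822 lower against 3302 and 3313, and the calls were 5 higher for fructose breakdown, 5 higher for galactose, mannose and hexosamine entry, 7 higher and 2 lower for inositol, 3 lower for trafficking and 2 higher for ascorbate. The median of all genes then moved to 0.17. At an adjusted p of 0.01 the calls were 1 higher for polyol, 3 higher for hexose phosphorylation, 1 higher for galactose and 5 lower for trafficking. With 1 library left out, SLC2A2 ranged from 0.071 to 0.192, and calls ranged from 1 to 3 higher for polyol, 3 to 5 higher for hexose phosphorylation, 5 to 9 lower for trafficking, 2 to 4 lower for inositol and 1 to 2 lower for the SLC5, SLC45 and SLC50 list. Beyond scaling and the stricter threshold, the cause was not tested. The replicate numbers pair nothing by the labels, and the deviations of same-numbered libraries correlated at -0.075, 0.00017 and -0.073. With the replicate block 2 transporters were called higher and 1 lower, and 3094 and 3110 genes overall. Low counts limit SLC2A6, SLC2A8, SLC2A10 and SLC2A12.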

Other observations

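The other transporters with a call lay among neighbours that did not share it throughout, in the gene order of Sscrofa11.1. SLC2A11 lies next to MIF, a cytokine gene that fell with a log2 fold change of -0.42 (edgeR's adjusted p = 1.52e-05). SMARCB1, 2 genes to the other side, also fell, with -0.14 (edgeR's adjusted p = 0.039). SLC2A12 lies next to SGK1, a kinase gene that rose with 0.35 (edgeR's adjusted p = 0.00388), and TBPL1 on its other side was at -0.04 with an adjusted p of 0.787. Near SLC2A2, which had no call, the neighbour EIF5A2 rose with 0.38 and TNIK was at 0.01, while FNDC3B, 4 genes away, fell with -0.99.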
